A study of Mus musculus with 6 samples.

Results

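Iron enters, is stored in and leaves a cell through a small set of proteins, and 10 of the genes that encode them were followed here in osteoclast cultures: *Tfrc*, *Steap3*, *Slc11a2* and *Slc11a1* for uptake and transfer, *Fth1* and *Ftl1* for storage, *Slc40a1* for export, *Hmox1* for release from heme, and *Ireb2* and *Aco1* for sensing. They were taken by name from 55573 genes counted by RNA sequencing, and all 10 were among the 16954 that passed a minimum of 10 counts over all libraries and were tested. The 6 libraries were 3 from control and 3 from Rosa-Hes1 cultures of bone marrow-derived macrophages (BMMs) from 10-week-old male mice, each grown for 4 days with macrophage colony-stimulating factor (M-CSF) at 30 ng/ml and the osteoclast-inducing cytokine RANKL at 10 ng/ml, which together turn these precursors into osteoclasts. Rosa-Hes1 stands for the genotype Ctsk Cre/WT;Rosa Hes1, in which Cre recombinase expressed from the cathepsin K (*Ctsk*) locus excises a stop cassette at Rosa26, so that HES1 and green fluorescent protein are made from 1 transcript in cells that have turned *Ctsk* on. Controls carry the label wild type. Per the study's methods they were littermates with the intact Rosa [STOP]Hes1 allele and no Cre, so that Cre itself, with 1 *Ctsk* allele replaced, goes with the Rosa-Hes1 genotype and cannot be told apart from HES1. The Rosa line had an ICR and the Cre line a C57BL/6 background. The comparison asks how a gain of HES1, a transcription factor that acts downstream of Notch receptors, goes with iron gene transcripts in maturing osteoclasts.

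Transferrin carries iron in the blood and binds the transferrin receptor, TFR1, which takes it into endosomes. There the reductase STEAP3 converts ferric to ferrous iron and the transporter DMT1 moves it into the cytosol. Iron that is not used is kept inside ferritin, a shell of heavy and light chains, and leaves the cell through ferroportin. Iron regulatory proteins 1 and 2 sense cytosolic iron and bind hairpins in messenger RNAs, the iron-responsive elements (IREs): when iron is scarce, binding in a 3′ UTR stabilizes the *Tfrc* transcript and binding in the 5′ UTR of ferritin and ferroportin transcripts blocks their translation. Osteoclasts are rich in mitochondria, and iron taken up through TFR1 is known to serve their energy metabolism.

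The IREs are shown because they divide these genes into those whose transcript level iron regulatory proteins can set and those where their main effect is on translation, which RNA sequencing does not read. The GENCODE M21 transcripts (GRCm38) were searched on the transcribed strand for an unpaired C, 5 bases, the loop CAGTGN with any last base but G, and 5 bases that pair with the first 5 (CNNNNNCAGTGNNNNNN). A variant with 1 extra unpaired base in the second arm was also accepted. The plain form was found in the 5′ UTR of 23 of 20900 protein-coding genes (0.11%) and in the 3′ UTR of 100 of 21022 (0.476%), and the variant in 35 (0.167%) and 162 (0.771%). Of the 10 genes, 5 held a match, *Tfrc* with 4 plain copies. Hairpins that differ from these letters or this pairing were not counted, so 4 need not be every IRE of *Tfrc*. Capitals mark the unpaired C and the 6-base loop, sequences run 5′ to 3′ with the minus-strand genes reverse complemented, and a match is a description of letters, not of binding.
Tfrc 3′ UTR, chr16:32631219-32631247, plus strand: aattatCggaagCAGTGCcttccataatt
Tfrc 3′ UTR, chr16:32631598-32631626, plus strand: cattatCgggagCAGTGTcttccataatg
Tfrc 3′ UTR, chr16:32631663-32631691, plus strand: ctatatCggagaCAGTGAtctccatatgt
Tfrc 3′ UTR, chr16:32631710-32631738, plus strand: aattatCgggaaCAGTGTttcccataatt
Slc11a2 3′ UTR, chr15:100395152-100395181, minus strand, variant form: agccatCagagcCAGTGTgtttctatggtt
Fth1 5′ UTR, chr19:9982732-9982760, plus strand: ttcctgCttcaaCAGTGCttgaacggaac
Ftl1 5′ UTR, chr7:45459779-45459807, minus strand: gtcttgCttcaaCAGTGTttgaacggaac
Slc40a1 5′ UTR, chr1:45925465-45925493, minus strand: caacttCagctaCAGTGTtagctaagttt

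Counts assigned to genes ranged from 13038362 to 15956331 per library, and values are CPM, each count as a share of that total after TMM scaling, times 1e+06, as mean ± SD with n = 3. *Hes1* itself was at 0.517, 0.557 and 0.296 CPM in controls and at 4.95, 4.83 and 6.91 CPM in Rosa-Hes1 libraries (log2 fold change 3.57, SE 0.30, edgeR quasi-likelihood adjusted p = 0.00477), higher in every Rosa-Hes1 library as the genotype labels imply. Of 10 osteoclast markers 9 were higher in Rosa-Hes1 libraries, against 5.85% of all genes. The study itself reports *Acp5*, *Calcr*, *Dcstamp*, *Ocstamp*, *Oscar*, *Car2*, *Atp6v0d2* and *Itgb3* as raised, so this count is no independent result. *Ctsk*, whose locus carries Cre, was not called (log2 fold change 0.08, edgeR adjusted p = 0.709). Summed levels were 10511 to 13565 CPM in controls and 16778 to 19737 CPM in Rosa-Hes1. The largest parts were *Mmp9* (means 5091 and 8457 CPM) and *Ctsk* (3146 and 3329 CPM). The study describes more osteoclasts in Rosa-Hes1 cultures, and in bulk RNA more osteoclasts and more RNA of a gene per osteoclast cannot be told apart. By the summed osteoclast markers Rosa-Hes1 replicate 2 lay nearest the controls, though not for every gene: its *Tfrc* level was the highest. Results among the iron genes followed here that rest on 1 library are given with their values without it. For wider genes the number of such fits past the threshold is given. The labels call the replicates biological without saying whether each was a separate mouse, and p-values measure only the spread between these samples.

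*Tfrc*, *Slc11a2* and *Aco1* were higher in Rosa-Hes1 libraries and none of the 10 genes was lower, by edgeR's quasi-likelihood test with Benjamini-Hochberg adjustment over all genes tested; across all genes 8.25% were called, 5.85% higher and 2.41% lower. Of the 10, 5 had groups that did not overlap, 4 with Rosa-Hes1 above and 1 below, against 31.2% of all genes (16.6% above and 14.5% below). The median log2 fold change of the 10 was 0.08, and that of all genes was -0.01.

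*Tfrc* (ENSMUSG00000022797, chromosome 16, 32608920 to 32632794, plus strand) encodes TFR1 and was the uptake gene with the highest level. It was at 1150.0, 1405 and 1389.6 CPM in controls and at 1810.0, 2031 and 1995 CPM in Rosa-Hes1 libraries. Every Rosa-Hes1 library lay above every control, and control replicate 1 was the lowest of all. The mean rose from 1315 ± 143 to 1945 ± 119 CPM, a log2 fold change of 0.57 (SE 0.09, 95% confidence interval 0.35 to 0.78, edgeR adjusted p = 0.0121).

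*Slc11a2* (ENSMUSG00000023030, chromosome 15, 100387898 to 100425072, minus strand) encodes DMT1, which passes ferrous iron from the endosome to the cytosol. Its level was 92.0, 106.9 and 106.2 CPM in controls and 159.5, 155.6 and 165.8 CPM in Rosa-Hes1 libraries. The groups were far apart for their spread. It rose by a log2 fold change of 0.66 (SE 0.08, interval 0.48 to 0.83, edgeR adjusted p = 0.0055), 1.58-fold. Gene-level counts do not separate its transcripts with and without the IRE, which was found in 1 annotated transcript.

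*Steap3* (ENSMUSG00000026389, chromosome 1, 120190757 to 120272705, minus strand), the endosomal ferrireductase between TFR1 and DMT1, was not called. It was at 73.7, 81.5 and 90.2 CPM in controls and at 102.6, 87.2 and 93.3 CPM in Rosa-Hes1 libraries. The groups overlapped, since control replicate 3 exceeded Rosa-Hes1 replicate 2. Its log2 fold change of 0.21 (SE 0.09, interval -0.01 to 0.42, edgeR adjusted p = 0.210) missed the threshold.

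*Slc11a1* (ENSMUSG00000026177, chromosome 1, 74375195 to 74386062, plus strand) encodes NRAMP1, a relative of DMT1 that moves metal ions across the phagosome membrane of macrophages. Its level was 467.7, 401.8 and 553.5 CPM in controls and 336.9, 336.4 and 390.8 CPM in Rosa-Hes1 libraries. All Rosa-Hes1 libraries lay below all controls, but Rosa-Hes1 replicate 3 and control replicate 2 were close. The log2 fold change of -0.42 (SE 0.12, interval -0.69 to -0.15) missed the threshold at an edgeR adjusted p of 0.0661. The call turned on the method: the adjusted p was 0.0375 with no filter on low counts, 0.00888 by the DESeq2 Wald test and 0.0378 by edgeR without control replicate 2, and the sign was negative in each of the 13 alternatives.

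**Figure D1:**
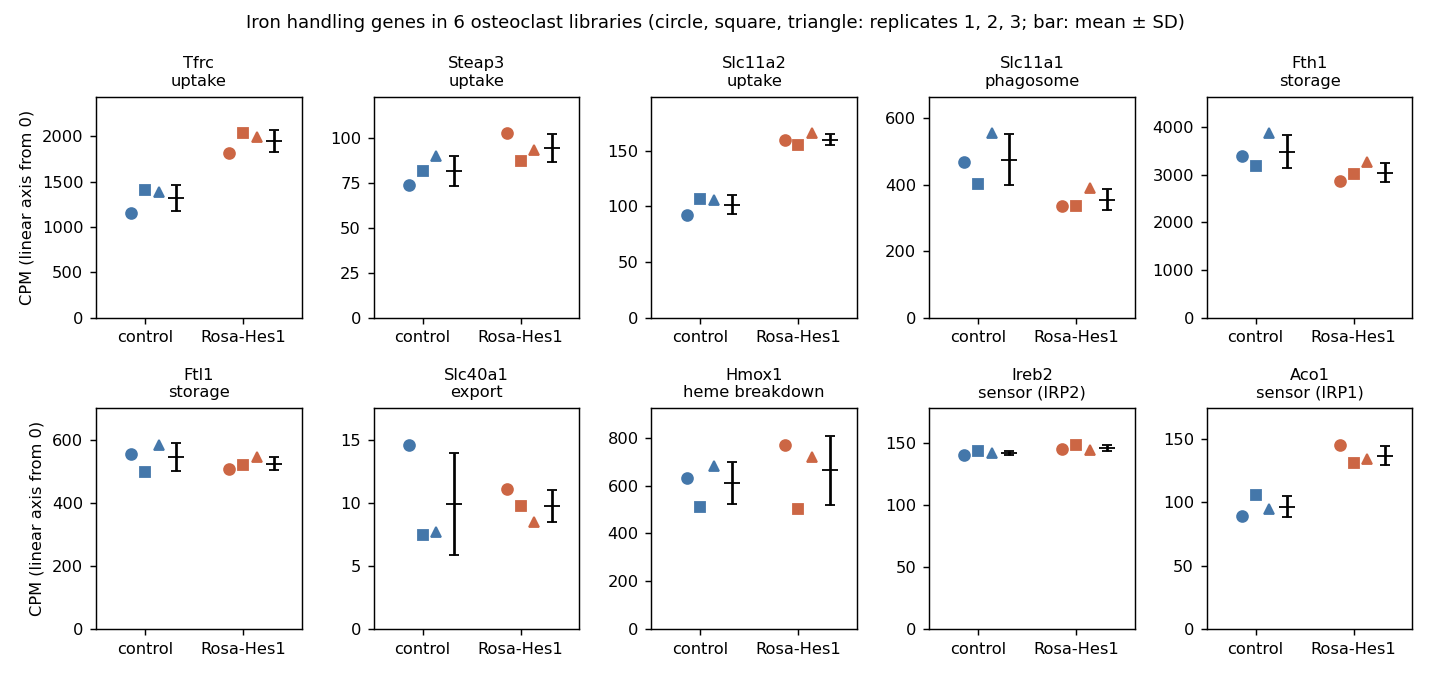
Level of each of the 10 iron genes in every library, in CPM on linear axes from 0, with 1 panel per gene; circle, square and triangle are replicates 1, 2 and 3 and the bar beside them is mean ± SD (n = 3 each). *Tfrc*, *Slc11a2*, *Aco1* and, by a small margin, *Ireb2* show Rosa-Hes1 points above all control points, and *Slc11a1* shows them below. *Slc40a1* has 1 control library, at 14.6 CPM, above the rest.

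The ferritin genes were abundant and neither passed the test. *Fth1* (ENSMUSG00000024661, chromosome 19, 9980598 to 9985098, plus strand), the heavy chain that oxidizes iron as it enters the shell, was at 3383, 3188 and 3864 CPM in controls and at 2858, 3008 and 3261 CPM in Rosa-Hes1 libraries. Only Rosa-Hes1 replicate 3 reached into the control range. For *Fth1* the log2 fold change was -0.19 (SE 0.09, interval -0.40 to 0.01, edgeR adjusted p = 0.226).

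*Ftl1* (ENSMUSG00000050708, chromosome 7, 45457944 to 45459884, minus strand), the light chain that helps iron mineralize, was at 554, 499.7 and 585 CPM in controls and at 508, 522 and 547 CPM in Rosa-Hes1 libraries. The Rosa-Hes1 values lay within the control range. For *Ftl1* the log2 fold change was -0.06 (SE 0.07, interval -0.23 to 0.11, edgeR adjusted p = 0.702). Both ferritin genes have near-identical copies in the genome, and reads that map to several places were counted for no gene, so their levels are uncertain and may be too low. The copy with the most reads, *Ftl1-ps1*, had 794 counts in all 6 libraries together.

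*Slc40a1* (ENSMUSG00000025993, chromosome 1, 45908068 to 45926523, minus strand) encodes ferroportin, the known exporter of cellular iron, and had the lowest level of the 10. It was at 14.6, 7.43 and 7.69 CPM in controls and at 11.1, 9.72 and 8.51 CPM in Rosa-Hes1 libraries, from 104 to 198 counts per library. Control replicate 1 stood above all others and the other two controls below all others. The log2 fold change was -0.01 (SE 0.26, interval -0.62 to 0.59, edgeR adjusted p = 0.988), and without control replicate 1 it was 0.37. Changes inside that interval could not be detected with this spread.

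*Hmox1* (ENSMUSG00000005413, chromosome 8, 75093621 to 75100589, plus strand), heme oxygenase 1, frees iron from heme and responds to oxidative stress. Its level was 633, 512 and 684 CPM in controls and 772, 502 and 722 CPM in Rosa-Hes1 libraries. The groups overlapped, and replicate 2 was the lowest of its group in both. The log2 fold change was 0.13 (SE 0.17, interval -0.28 to 0.53, edgeR adjusted p = 0.719), with 0.29 when Rosa-Hes1 replicate 2 was left out.

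The iron sensors differed from each other. *Aco1* (ENSMUSG00000028405, chromosome 4, 40143081 to 40198338, plus strand) encodes a protein that is cytosolic aconitase when it holds an iron-sulfur cluster and iron regulatory protein 1 when it does not. It was at 89.4, 105.6 and 94.8 CPM in controls and at 145.6, 131.4 and 134.3 CPM in Rosa-Hes1 libraries. The groups did not overlap. The log2 fold change was 0.50 (SE 0.08, interval 0.32 to 0.69, edgeR adjusted p = 0.0110), 1.42-fold, and the call was lost without Rosa-Hes1 replicate 1 (adjusted p = 0.0548).

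*Ireb2* (ENSMUSG00000032293, chromosome 9, 54863789 to 54912530, plus strand) encodes iron regulatory protein 2, which is controlled largely by degradation of the protein. Its level was 140.6, 143.8 and 141.8 CPM in controls and 145.5, 148.5 and 144.2 CPM in Rosa-Hes1 libraries. The groups did not overlap because the libraries of each group were so close, with a coefficient of variation of 1.12% and 1.51%. A log2 fold change of 0.04 (SE 0.06, interval -0.09 to 0.17, edgeR adjusted p = 0.724) was fitted.

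**Figure D2:**
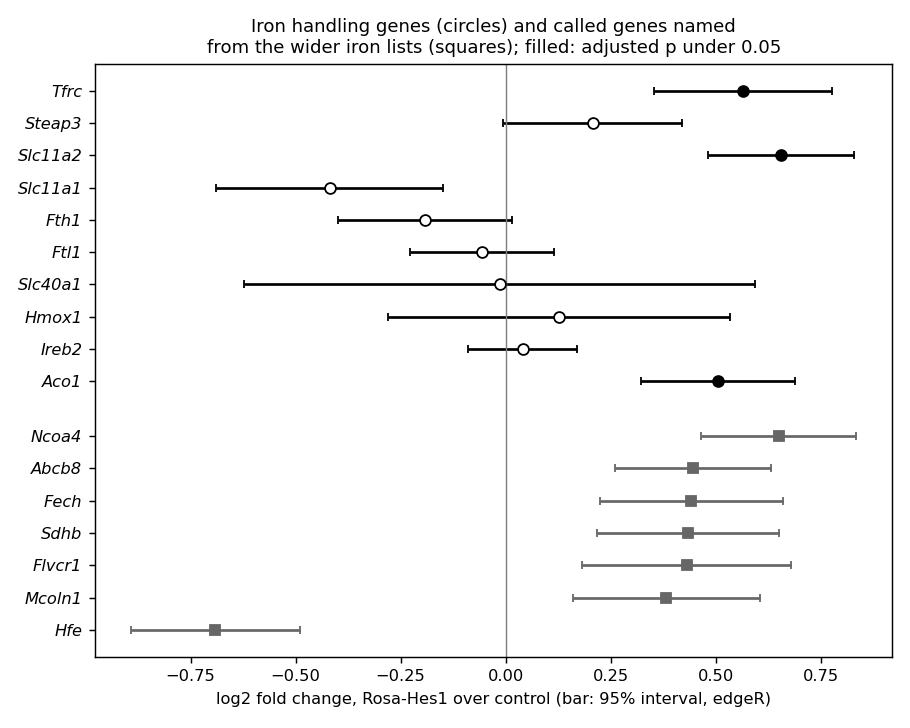
Log2 fold change of Rosa-Hes1 over control from the edgeR fit, with 95% confidence intervals as bars, for the 10 iron genes (circles) and for 7 called genes of the wider iron lists described further on (squares, chosen because they passed); filled marks are past an adjusted p of 0.05. The intervals of *Slc11a2* (0.48 to 0.83), *Tfrc* (0.35 to 0.78) and *Aco1* (0.32 to 0.69) lie to the right of 0, those of *Slc11a1* and *Hfe* lie to the left, and that of *Slc40a1* is the widest.

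Levels of different genes were compared per kilobase of merged exons (CPM per kb, mean ± SD, n = 3). *Fth1* was the highest, at 1003 ± 100.3 in controls and 877 ± 58.6 in Rosa-Hes1 libraries, and ranked 14 of 16949 genes by its mean over all libraries. *Ftl1* (408 ± 32.2 and 392 ± 14.8) and *Hmox1* (348 ± 50.3 and 380 ± 82.1) followed, and their ranges over libraries overlapped in both groups. *Tfrc* was at 213 ± 23.1 in controls, with each control library below all control values of *Hmox1*, and at 315 ± 19.2 in Rosa-Hes1 libraries, inside the *Hmox1* range.

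Lower in the order, *Slc11a1* was at 128 ± 20.5 CPM per kb in controls and 95.7 ± 8.45 in Rosa-Hes1 libraries. *Aco1* (21.5 ± 1.84 and 30.5 ± 1.67) lay above *Slc11a2* (16.0 ± 1.33 and 25.2 ± 0.804) with no overlap in either group. In controls *Slc11a2*, *Steap3* (14.3 ± 1.45) and *Ireb2* (15.0 ± 0.168) had overlapping ranges, whereas in Rosa-Hes1 libraries *Slc11a2* lay above both of the others. *Slc40a1* was at 1.10 ± 0.453 and 1.09 ± 0.143, the lowest of the 10. Merged exons include those of noncoding isoforms, which lowers a level per length.

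**Figure D3:**
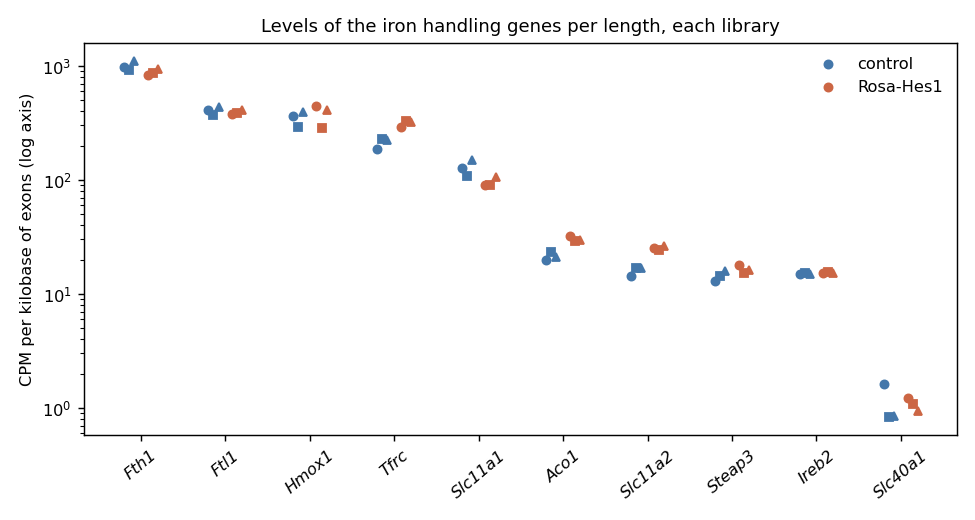
Levels of the 10 iron genes in CPM per kilobase of merged exons on a log axis, ordered by their mean, with control and Rosa-Hes1 libraries side by side and 1 mark per library (circle, square and triangle for replicates 1, 2 and 3). The order runs from *Fth1*, at 939.8 on average over all libraries, to *Slc40a1*, at 1.09.

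Ratios between pairs of these genes within a library need no scaling between libraries. The 4 ratios were tested with a two-sided exact permutation test, which cannot go below p = 0.1 with 3 libraries against 3, so none could pass the threshold. Counts of *Tfrc* per count of *Fth1* were 0.340, 0.441 and 0.360 in controls and 0.633, 0.675 and 0.612 in Rosa-Hes1 libraries. The ratio was higher in each Rosa-Hes1 library than in any control, on average 1.69-fold (exact permutation p = 0.1, adjusted 0.133). The ratio of *Slc11a2* to *Slc11a1* was 0.197, 0.266 and 0.192 in controls and 0.473, 0.463 and 0.424 in Rosa-Hes1 libraries. This ratio was 2.10-fold higher, again with no overlap (exact permutation p = 0.1, adjusted 0.133).

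Counts of *Fth1* (heavy ferritin chain) per count of *Ftl1* (light chain) were 6.10, 6.38 and 6.60 in controls and 5.63, 5.77 and 5.96 in Rosa-Hes1 libraries. These ratios are not corrected for exon length (3469 and 1340 bases) or for reads lost to ferritin copies, so they do not give the proportion of the 2 transcripts. The groups did not overlap, although the fold of 0.910 was small (exact permutation p = 0.1, adjusted 0.133). The ratio of the exporter *Slc40a1* to *Tfrc* overlapped between groups (fold 0.695, exact permutation p = 0.4), and control replicate 1 alone held most of the difference: the log2 difference was -0.52 with it and -0.11 without it.

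**Figure D4:**
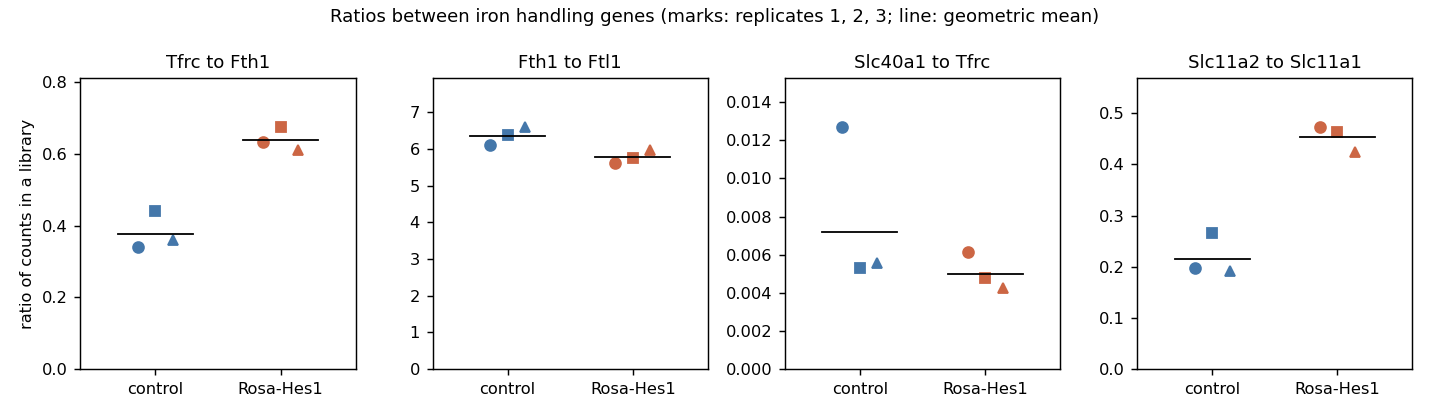
Ratios of counts between pairs of iron genes within each library, 1 panel per ratio on linear axes from 0; marks are replicates 1, 2 and 3 and the line is the geometric mean of a group. The *Tfrc* to *Fth1* ratio lies between 0.340 and 0.441 in controls and between 0.612 and 0.675 in Rosa-Hes1 libraries, and the *Slc40a1* to *Tfrc* ratio overlaps.

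Around these genes, 93 others of iron metabolism were listed in 8 groups by textbook role. Of them 84 were tested, with 7 higher and 1 lower in Rosa-Hes1 libraries, against 5.85% and 2.41% of all genes, and a median log2 fold change of 0.06. In the transferrin cycle and other uptake list 1 of 15 tested genes was higher and 1 lower. *Hfe*, whose product binds TFR1 and takes part in systemic iron sensing, fell from 39.0 ± 2.21 to 24.1 ± 1.72 CPM (log2 fold change -0.69, SE 0.09, edgeR adjusted p = 0.00591). *Mcoln1*, a cation channel of endosomes and lysosomes, rose from 53.1 ± 5.29 to 69.2 ± 6.35 CPM (log2 fold change 0.38, SE 0.10, edgeR adjusted p = 0.0484). The most abundant gene of that list, the scavenger receptor gene *Lrp1*, had a log2 fold change of -0.16 (edgeR adjusted p = 0.432).

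In the storage and ferritin turnover list 1 of 5 tested genes was higher. *Ncoa4*, the receptor that delivers ferritin to lysosomes for breakdown, rose from 111 ± 9.55 to 175 ± 10.2 CPM (log2 fold change 0.65, SE 0.08, edgeR adjusted p = 0.00591), while the iron chaperone gene *Pcbp1* had a log2 fold change of 0.01 (adjusted p = 0.963). None of 3 tested export genes was called, and the most abundant, the ferroxidase gene *Cp*, had a log2 fold change of 0.37 (adjusted p = 0.737).

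One of 14 genes of heme uptake and breakdown was called. *Flvcr1*, listed here as a heme export gene, rose from 55.9 ± 2.09 to 75.4 ± 11.3 CPM (log2 fold change 0.43, SE 0.11, edgeR adjusted p = 0.0470). The most abundant of that list, the heme transporter gene *Slc48a1*, had a log2 fold change of -0.12 (adjusted p = 0.334). In the heme synthesis list 1 of 13 was called, with a list median of 0.14. The called gene, *Fech*, encodes ferrochelatase, which inserts iron into protoporphyrin, and rose from 70.5 ± 1.57 to 95.8 ± 12.4 CPM (log2 fold change 0.44, SE 0.10, edgeR adjusted p = 0.0285), whereas *Alas1*, for the first enzyme of the pathway, had a log2 fold change of -0.04 (adjusted p = 0.718).

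None of 8 tested genes of iron sensing was called, and *Cul1*, the most abundant, had a log2 fold change of -0.05 (edgeR adjusted p = 0.639). Of 21 genes of mitochondrial iron and iron-sulfur cluster assembly 1 was called: *Abcb8*, a mitochondrial inner membrane transporter gene, rose from 69.0 ± 6.27 to 94.1 ± 4.01 CPM (log2 fold change 0.45, SE 0.08, edgeR adjusted p = 0.0165). *Hspa9*, a mitochondrial chaperone and the most abundant of them, had a log2 fold change of 0.03 (adjusted p = 0.801).

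In a list drawn up as transcripts bound by iron regulatory proteins outside the 10 genes, 2 of 6 tested were called, both higher. Whether these mouse transcripts, *Sdhb* among them, are bound was not checked here. *Sdhb*, the iron-sulfur subunit of succinate dehydrogenase, rose from 254 ± 27.7 to 343 ± 26.9 CPM (log2 fold change 0.43, SE 0.10, edgeR adjusted p = 0.0298). With no stated strand setting, reads on bases shared by exons of opposite-strand genes may have been set aside as ambiguous and counted for neither. The opposite-strand partners of *Flvcr1* (*A230020J21Rik*) and *Slc11a2* (*Gm5475*) had 1 and 18 counts, which does not show how many reads were set aside. Of the 8 wider genes called, *Ncoa4* and *Hfe* stayed past the threshold in all 13 alternatives. *Fech*, *Flvcr1* and *Mcoln1* stayed past it in 1 of the 6 fits that left out a library, and *Abcb8* and *Sdhb* in 2.

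Markers of other cell types were read beside these results. The macrophage list gave 9043 to 10775 CPM in controls and 8894 to 10394 in Rosa-Hes1 libraries, with 1 of 12 genes higher and 1 lower (*Cd68* and *Cx3cr1*, named after their values were seen). The proliferation list gave 2345 to 2745 CPM in controls and 1447 to 2245 in Rosa-Hes1 libraries, with 2 of 10 genes lower (*Mcm2* and *Pcna*, likewise), against 2.41% of all genes. In that list 7 of 10 genes had every Rosa-Hes1 library below every control, against 14.5% of all genes. Its median log2 fold change was -0.45.

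Erythroid precursors, which carry much TFR1, were nearly absent: the summed level of their 10 markers was at most 0.392 CPM in any library, *Hba-a2* and *Slc4a1* were among those at 0 in all 6, and *Ahsp* had no symbol match. Neutrophil markers summed to 244 to 474 CPM in controls and 233 to 317 in Rosa-Hes1 libraries, and osteoblast and stroma markers to 174 to 477 and 109 to 371, with no call in either list. B cell markers reached at most 5.89 CPM and T and NK cell markers at most 0.582 CPM, also with none called. The part of osteoclast number and of proliferation in the differences of *Tfrc*, *Slc11a2*, *Aco1* and the wider genes was not tested.

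**Figure D5:**
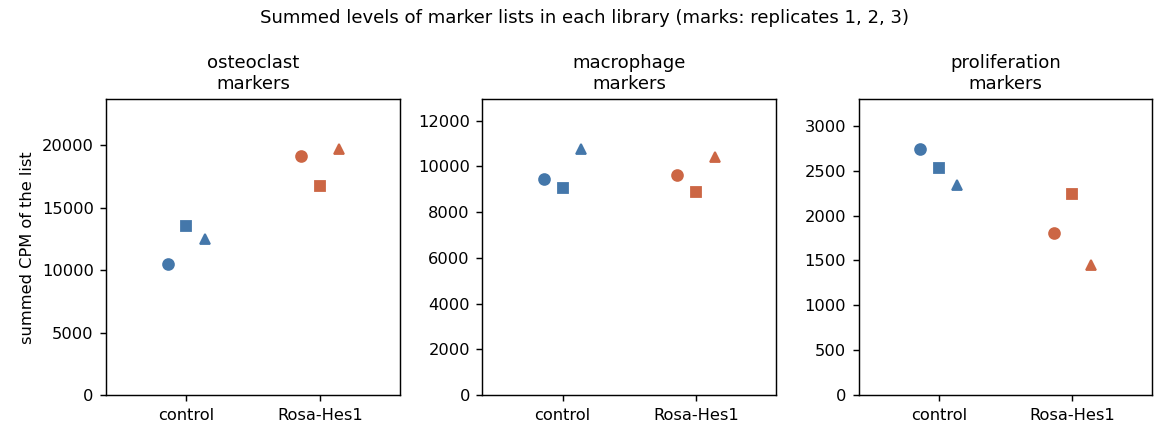
Summed level, in CPM on linear axes from 0, of the osteoclast, macrophage and proliferation marker lists, with 1 mark per library. Osteoclast sums are separate between groups (10511 to 13565 against 16778 to 19737 CPM), macrophage sums overlap, and proliferation sums are lower in Rosa-Hes1 libraries (1447 to 2245 against 2345 to 2745 CPM).

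The genes whose log2 level followed *Tfrc* most closely over the 6 libraries, among 9096 others that averaged 10 CPM or more, were *Ogdh* (Pearson r = 0.998), *Slc25a3* (0.995), *Ano10* (0.995), *Arhgap31* (0.994) and *Kctd6* (0.991). *Ogdh* encodes a subunit of the 2-oxoglutarate dehydrogenase complex of the citric acid cycle and *Slc25a3* the mitochondrial phosphate carrier. These values describe 6 libraries that share a group difference, and *Arhgap31* and the others were picked for their likeness.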

How the data were processed

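RNA was extracted from 3 control and 3 Rosa-Hes1 cultures, and stranded mRNA libraries were sequenced in 1 pool. The authors aligned reads with HISAT2 2.1.0, processed them with SAMtools 1.9, removed duplicates with Picard and deposited HTSeq gene counts, 1 table per library. The submitters' notes and gene identifiers give mouse GRCm38; the strand setting is not given in the sources used here. Reads outside genes (17.4 to 18.1%) stayed out of library sizes; 93 identifiers of 55573 had no symbol.

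Genes with at least 10 counts over the 6 libraries were fitted with edgeR 4.0.16 (R 4.3.3; TMM, robust quasi-likelihood, no covariate), with Benjamini-Hochberg adjustment over 16954 genes and calls at an adjusted p under 0.05. Of these, 1399 (8.25%) were called. Intervals are 95%. The fit was also run on simulated data, and how well it recovered their changes is not reported here. DESeq2 1.42.0 and limma 3.58.1 (voom), other scalings and filters, the replicate block and leaving out each library were alternatives.

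The members and lists were chosen with earlier results of these data known. Named were all members, called genes of each wider list with its most abundant member, *Hes1*, and the 5 genes most like *Tfrc*. Results for some listed genes are not reported here.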

Additional observations from a re-analysis of the deposited data

How the results depend on the processing

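*Tfrc* and *Slc11a2* were higher and past the threshold in all 13 alternatives, with log2 fold changes of 0.48 to 0.62 and 0.59 to 0.69 and adjusted p up to 0.0420 and 0.0329. *Aco1* was past it in 12. *Fth1*, *Ftl1*, *Hmox1*, *Ireb2*, *Steap3* and *Slc40a1* passed in none. *Slc40a1* changed sign with limma-voom (0.15), with the replicate block (0.032), and in 2 of the fits without 1 library, whose values ran from -0.19 to 0.37; the cause was not tested.

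Over all genes, 1399 were called by edgeR, 2169 by the DESeq2 Wald test, 2294 by limma-voom, and 265 to 2646 with 1 library left out, the most without Rosa-Hes1 replicate 2. Among the 10 genes, 1 (*Slc11a1*) was called lower with no filter, by DESeq2 and with the replicate block (adjusted p = 0.0354), and 0 to 1 with 1 library left out, when 2 to 3 were called higher. In the wider lists 2 to 10 were higher and 1 to 3 lower with 1 library left out, and DESeq2 called 2 lower; 10, 9, 9 and 8 were higher by DESeq2, limma-voom, no filter and filterByExpr.

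Deviations of same-numbered libraries from their group means had correlations of -0.02, -0.15 and 0.37. Differently numbered ones reached 0.48 (control replicate 1 with Rosa-Hes1 replicate 2) and -0.49 (control replicate 1 with Rosa-Hes1 replicate 3). The numbers were therefore not taken to pair samples. With the replicate block edgeR called 1050 genes, 3 of the 10 higher and 1 lower, and 5 wider genes higher, *Flvcr1* (0.0713) and *Sdhb* (0.0518) being lost. Counts were low for *Slc40a1* (104 to 198 per library, with a coefficient of variation of 41.1% among controls) and for *Hes1* (4 to 9 per control library).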
